A study of Homo sapiens with 32 samples.

Results

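The rows mir-192, mir-194 and mir-215 are 3 of the 1513 miRNA precursor rows counted in small RNA libraries of 293T cells. They were chosen by name, as the hairpins that lie in pairs at 2 human loci, after the fall of mir-192 under ERH knockdown had been seen in these data. The knockdown values are therefore a description, without a test. The deletion, its interaction with the knockdown and the vector comparisons were not used in the choice and were tested. 293T cells derive from human embryonic kidney and express SV40 large T antigen. The libraries came from 8 clones. Wild-type clones were numbered 52, 55, 57 and 67. Clones 30, 34, 42 and 43 had been prime-edited at DGCR8 and carry the label DGCR8 delta103-126Q, a deletion of the segment that ERH is reported to bind. Each clone received 4 short hairpin RNA (shRNA) vectors by transient transfection, numbers 1 and 2 of a non-targeting control and numbers 1 and 2 against ERH, which gave 32 libraries. All groups were under 2 µg/ml puromycin from 24 h and were sorted for the vector's marker on day 5. A clone is 1 isolate of its line, and ERH mRNA and the edit itself were not analysed here, which leaves the genotype and knockdown labels without a check of their own.

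DROSHA and its RNA-binding partner DGCR8 form the Microprocessor, which releases miRNA hairpins from their primary transcripts. Where hairpins share a transcript, an easily cut hairpin can help a poorly cut neighbour, and ERH, a small nuclear protein, has been reported to take part in such assistance. miR-192 and miR-215 have the same seed, the bases that pair with target mRNAs, while miR-194 has another seed, which pairs with other sites. In the body these miRNAs are known from liver, intestine and kidney epithelium, where hepatocyte nuclear factors drive their transcripts, and they have been reported as p53 targets. Large T antigen binds p53 in 293T cells.

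The mature sequences show which members share a seed and how few bases separate the rows mir-192 and mir-215. They are printed 5′ to 3′ from RefSeq (GRCh38.p14), with the seed, bases 2 to 8, in capitals.
miR-192-5p: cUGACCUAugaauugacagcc
miR-215-5p: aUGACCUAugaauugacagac
miR-194-5p: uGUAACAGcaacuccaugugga
miR-192-3p: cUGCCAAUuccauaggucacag
miR-215-3p: uCUGUCAUuucuuuaggccaaua
miR-194-3p: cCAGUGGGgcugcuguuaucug
miR-192-5p and miR-215-5p were identical at 19 of 21 positions. The differences were C1A and C20A, counted from 1 at the 5′ end with the base of miR-192-5p first. Among 2370 mature miRNA names in the reference table, the seed of miR-192-5p occurred only in these 2, and the seed of miR-194-5p in no other. The 3′ arms of mir-192 and mir-215 did not share a seed. A read that lost its end bases could not be placed between the rows mir-192 and mir-215 from the shared middle alone, and how the authors handled such reads is not given in the sources used here.

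The hairpins follow in the order of transcription at each locus, because the partner ratios below rest on these pairs. The mature arms listed in the reference table are in capitals. On chromosome 11, MIR194-2 (chr11:64891355-64891439) lies 0.108 kb upstream of MIR192 (chr11:64891137-64891246), both on the minus strand.
MIR194-2: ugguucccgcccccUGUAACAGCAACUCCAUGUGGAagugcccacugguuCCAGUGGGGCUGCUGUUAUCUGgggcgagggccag
MIR192: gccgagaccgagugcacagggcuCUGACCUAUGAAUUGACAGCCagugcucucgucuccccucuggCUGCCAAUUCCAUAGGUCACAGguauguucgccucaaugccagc
On chromosome 1, MIR194-1 (chr1:220118157-220118241) lies 0.194 kb upstream of MIR215 (chr1:220117853-220117962), also on the minus strand.
MIR194-1: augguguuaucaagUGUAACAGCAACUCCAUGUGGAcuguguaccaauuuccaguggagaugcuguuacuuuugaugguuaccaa
MIR215: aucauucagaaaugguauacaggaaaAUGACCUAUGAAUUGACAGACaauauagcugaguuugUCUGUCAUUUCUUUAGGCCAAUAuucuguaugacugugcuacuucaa
Both MIR194 hairpins give the same miR-194-5p, and the count table has a single row mir-194. Counts from chromosome 11 and from chromosome 1 therefore cannot be told apart in that row.

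MIR192 and MIR194-2 lie whole within an exon of the long noncoding RNA MIR194-2HG (chr11:64889560-64893449, GENCODE release 29). MIR215 and MIR194-1 lie within an intron of IARS2 (chr1:220094102-220148041), the mitochondrial isoleucyl-tRNA synthetase, but on the opposite strand. No other annotated hairpin lay within 10 kb of MIR215 on its strand. Within 10 kb of MIR192 the annotation held MIR6750 on the same strand, 7116 bases away. The row mir-6750 had 0 to 6 counts in a library and 0 in 21 of 32 libraries, too few for a comparison. GC content was 57.3% for MIR192 and 62.4% for MIR194-2, against 34.5% for MIR215 and 41.2% for MIR194-1. Folded alone with RNAfold, each hairpin formed a single stem-loop. The apical loop had 16 bases in MIR192, 11 in MIR215, 6 in MIR194-1 and 4 in MIR194-2. The minimum free energy was -39.0 kcal/mol for MIR192 and -33.0 kcal/mol for MIR215, which are both 110 bases long. The 85-base hairpins MIR194-2 and MIR194-1 had -49.6 and -38.4 kcal/mol. The members that differ between the loci thus had the wider loops, and their partners the narrower ones.

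Libraries held 1318923 to 6222790 miRNA counts. The row mir-192 had 1032 to 11563 counts (median 3706), mir-194 had 832 to 3851 (median 1119), and mir-215 had 44 to 286 (median 102). The last is thus the row with the least counting precision. For the comparisons below, the counts of the 2 control or 2 ERH libraries of a clone were summed, and levels are given as CPM, counts relative to a library size scaled by the trimmed mean of M-values (TMM). The mean level over the 16 sums was 1848 CPM for mir-192, the rank of 68 among 1513 rows. It was 574 CPM for mir-194, rank 109, and 45.9 CPM for mir-215, rank 250. These are read counts per miRNA, not divided by length, and ligation differs between sequences, so the order of the 3 rows is one of counts. Of 6 miRNAs that mark epithelia, mir-200a, mir-200b, mir-200c, mir-141, mir-429 and mir-203a, 3 had a mean of at least 10 CPM, and their summed level ran from 103 to 324 CPM over the 16 sums. None of the marker rows examined was at 0 in all libraries. Of the neuronal markers, mir-9 had a mean of 6007 CPM and mir-124 a mean of 10.3 CPM.

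With ERH shRNAs mir-192 stood at 27% of its control level, while the ERH sums of mir-194, its locus partner, and mir-215, its seed relative, overlapped their control sums. In wild-type clones with control shRNAs, mir-192 stood at 2567, 4194, 3541 and 3537 CPM in clones 52, 55, 57 and 67. With ERH shRNAs the same clones had 571, 1025, 783 and 1194 CPM. Deletion clones 30, 34, 42 and 43 had 4597, 1676, 1749.9 and 1512 CPM with control shRNAs and 1098, 523, 569 and 433 CPM with ERH shRNAs. Every clone was lower with ERH shRNAs, and the lowest control sum of the 8 clones, 1512 CPM, was above the highest ERH sum, 1194 CPM. Of the 667 rows tested, 7.35% were lower in every clone and 12% higher in every clone. Every ERH sum lay under every control sum in 5.55% of rows among wild-type clones and in 3.0% among deletion clones. These shares are background, since this contrast brought mir-192 to attention. The share of rows with no overlap of the arms across all 8 clones was not counted. In sorted bulk cells, fewer cells with the miRNA and less of it per cell cannot be told apart.

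The within-clone log2 change of mir-192 was -1.89 ± 0.25 (SD, n = 8 clones), the 27% given above. It ran from -2.18 in clone 57 to -1.57 in clone 67. Wild-type clones averaged -1.99 ± 0.29 (SD, n = 4) and deletion clones -1.79 ± 0.20 (SD, n = 4). In the fit across all rows, the log2 fold change of mir-192 was -1.95 ± 0.12 (SE), the third lowest of 667. That fit called 36.6% of rows at an adjusted p under 0.05, 20.1% higher and 16.5% lower, and the median row moved by 0.06. With spike-in scaling, which divides by RNAs added in equal amount to each sample, the median row moved by 0.52, and the calls were 233 higher and 22 lower in place of 134 and 110. mir-192 then changed by -1.49 ± 0.56 (SD, n = 8 clones) and was still lower in 8 of 8 clones. Scaled to the total miRNA count, the median row moved by 0.33 and mir-192 changed by -1.68 ± 0.20 (SD, n = 8 clones), again lower in 8 of 8 clones.

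mir-194, the upstream partner at both loci, had 645, 906, 617 and 705 CPM in wild-type clones 52, 55, 57 and 67 with control shRNAs. With ERH shRNAs these clones had 459.6, 610.3, 647 and 504 CPM. Deletion clones 30, 34, 42 and 43 went from 971, 409, 453 and 446 CPM to 705, 355, 367 and 391 CPM. The ERH sums overlapped the control sums in each genotype, and clone 57 alone was higher with ERH shRNAs. The within-clone log2 change was -0.33 ± 0.21 (SD, n = 8 clones) with TMM scaling, lower in 7 of 8 clones, but 0.07 ± 0.51 with spike-in scaling, lower in 3 of 8. With total miRNA scaling it was -0.12 ± 0.18 (SD, n = 8 clones). The direction of mir-194 under the knockdown thus depended on the scaling, and that of mir-192 did not under the 3 scalings run.

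mir-215, the seed relative of mir-192 at the other locus, had 44.0, 61.5, 48.5 and 33.6 CPM in wild-type clones 52, 55, 57 and 67 with control shRNAs, and 26, 41.3, 35.8 and 32.5 CPM with ERH shRNAs. Deletion clones 30, 34, 42 and 43 went from 70.4, 80.0, 27.7 and 39.8 CPM to 43.9, 73.7, 29.6 and 46.8 CPM. The 4 wild-type clones were lower with ERH shRNAs, whereas 2 of the 4 deletion clones were lower and 2 higher. Over the 8 clones the log2 change was -0.28 ± 0.37 (SD) with TMM scaling and 0.11 ± 0.66 with spike-in scaling. In the fit across all rows, the log2 fold change was -0.39 ± 0.11 (SE) for mir-194 and -0.35 ± 0.16 (SE) for mir-215, at positions 116 and 140 from the lowest of 667 rows.

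**Figure D1:**
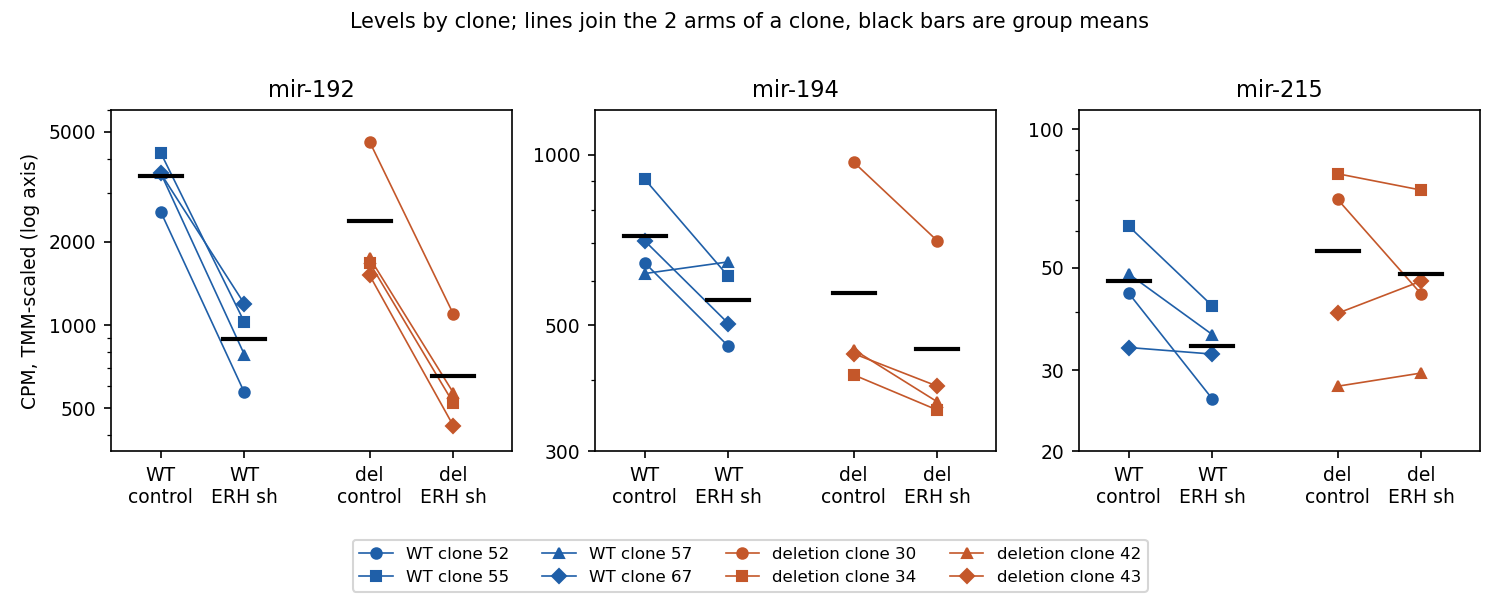
Level of mir-192, mir-194 and mir-215 in each clone, as TMM-scaled CPM on a log axis, for wild-type (WT) and deletion (del) clones with control or ERH shRNAs; each point is the sum of 2 libraries, lines join the arms of a clone and black bars are group means (n = 4). All 8 lines of mir-192 fall, from 1512 CPM or more to 1194 CPM or less, while 1 line of mir-194 and 2 lines of mir-215 rise.

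Both ERH shRNAs showed the pattern when each was set against the control shRNA of the same number. The log2 change of mir-192 was -2.0 ± 0.34 (SD, n = 8 clones) for number 1 and -1.83 ± 0.53 for number 2, lower in 8 of 8 clones for each. For mir-194 the values were -0.52 ± 0.30 (SD, n = 8 clones) for number 1, lower in 7 clones, and -0.21 ± 0.26 for number 2, lower in 6. For mir-215 they were -0.33 ± 0.48 and -0.27 ± 0.76, lower in 6 and in 5 clones. The fall of mir-192 was thus seen with each vector pair in every clone, while mir-194 and mir-215 were not lower in every clone with either.

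The vectors within an arm were compared as a test of the shRNAs themselves, with the clone as a block. None of the 3 rows differed between control shRNA 2 and control shRNA 1. The log2 difference of mir-192 was -0.04 (95% interval -0.26 to 0.18, edgeR adjusted p = 0.960), of mir-194 -0.16 (adjusted p = 0.749) and of mir-215 -0.25 (adjusted p = 0.750). Between ERH shRNA 2 and ERH shRNA 1 the log2 difference of mir-192 was 0.14 (95% interval -0.10 to 0.38, adjusted p = 0.776). It was 0.16 for mir-194 (adjusted p = 0.690) and -0.20 for mir-215 (adjusted p = 0.713). The background was 0.0% in both comparisons. edgeR called 0 of 571 rows between the control vectors (48 at an unadjusted p under 0.05, and 1 called by DESeq2) and 0 of 578 between the ERH vectors (37 unadjusted, and 1 by DESeq2).

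Partner ratios use 2 rows of the same library, so that they do not move with the scaling. The count ratio of mir-192 to mir-194 in wild-type clones 52, 55, 57 and 67 was 3.98, 4.63, 5.73 and 5.02 with control shRNAs and 1.24, 1.68, 1.21 and 2.37 with ERH shRNAs. In deletion clones 30, 34, 42 and 43 it went from 4.74, 4.10, 3.86 and 3.39 to 1.56, 1.47, 1.55 and 1.11. Every control ratio was above every ERH ratio, and mir-192 had more counts than mir-194 in all 16 sums. The log2 ratio changed by -1.56 ± 0.34 (SD, n = 8 clones), a 2.95-fold fall, from -2.25 in clone 57 to -1.08 in clone 67. The part of the mir-194 row that comes from the locus of MIR192 was not measured.

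The log2 ratio of mir-215 to mir-194 changed by 0.04 ± 0.36 (SD, n = 8 clones) with the knockdown, from -0.51 to 0.44, lower in 4 clones and higher in 4. This ratio thus had no common direction, while the ratio of mir-192 to mir-194 fell in each clone. As mir-194 may hold counts of both loci, neither ratio measures the pair of a single locus. mir-192 also fell against its seed relative. The count ratio of mir-192 to mir-215 went from 58.1, 68.0, 72.8 and 104.9 to 21.9, 24.7, 21.8 and 36.7 in wild-type clones 52, 55, 57 and 67. In deletion clones 30, 34, 42 and 43 it went from 65.3, 20.9, 63.0 and 37.9 to 25, 7.09, 19.2 and 9.23. On the log2 scale this was -1.60 ± 0.22 (SD, n = 8 clones), lower in 8 of 8 clones, a 3.04-fold fall. These ratios share rows, so their changes are not independent of each other.

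The rows mir-192 and mir-215 together hold both miRNAs of the shared seed. They also count the other arms of these hairpins, which do not share a seed. In wild-type clones their summed level was 3507 ± 676.7 CPM with control shRNAs and 927 ± 277 CPM with ERH shRNAs (SD, n = 4). In deletion clones it was 2438 ± 1490 CPM and 704 ± 297 CPM. mir-215 made up 1.36% ± 0.31 of that sum in wild-type controls and 3.81% ± 0.81 with ERH shRNAs. In deletion clones its share was 2.55% ± 1.42 with control shRNAs and 7.72% ± 4.02 with ERH shRNAs, with 12.4% as the highest sum. mir-192 thus made up most of the summed level in all 4 groups, so that the sum moved with it.

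**Figure D2:**
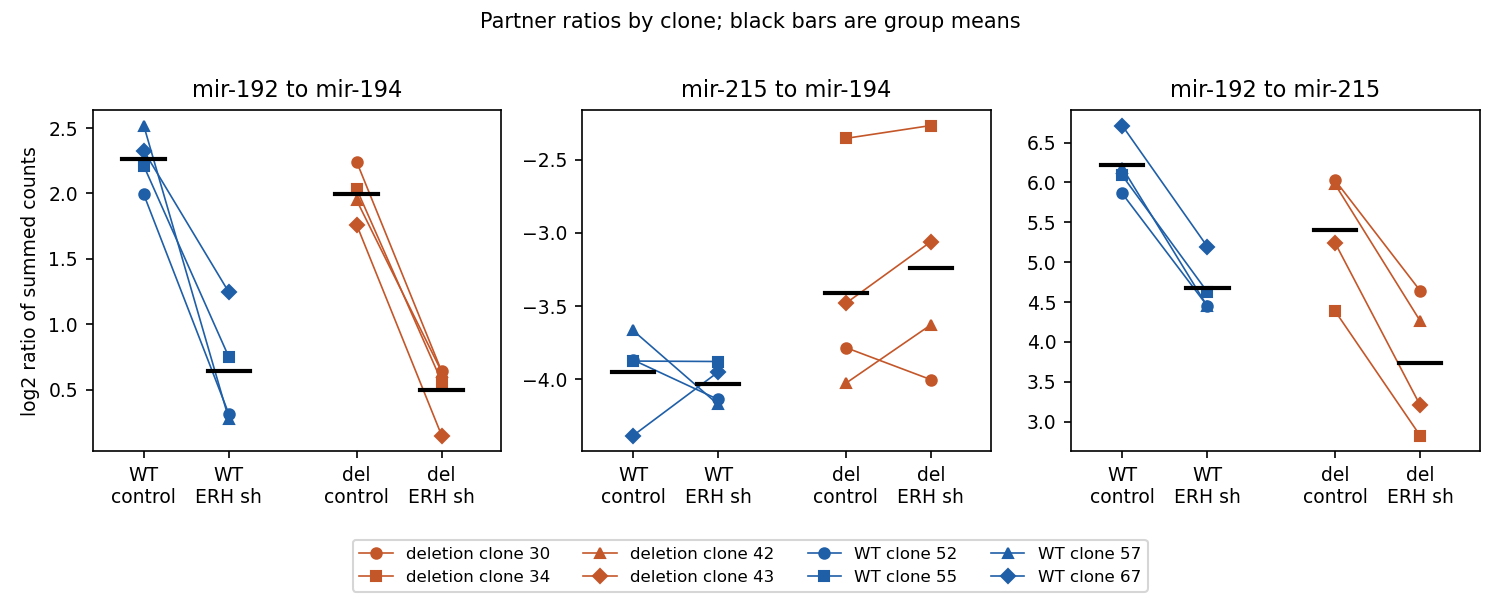
Log2 count ratio of each pair of rows per clone, for wild-type and deletion clones with control or ERH shRNAs; points are clones, lines join the arms of a clone and black bars are group means (n = 4). The ratios with mir-192 as numerator fall in all 8 clones, and the ratio of mir-215 to mir-194 falls in 4 and rises in 4.

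The deletion of the reported ERH contact site was compared with wild type among control-shRNA sums, 4 clones against 4. No member passed the test. Wild-type clones averaged 3459.7 ± 670.4 CPM of mir-192 and deletion clones 2384 ± 1479 CPM (SD, n = 4). Its log2 difference was -0.68 ± 0.33 (SE, 95% interval -1.39 to 0.03, edgeR adjusted p = 0.138). For mir-194 the means were 718 ± 130.2 CPM and 569.7 ± 268 CPM, a log2 difference of -0.47 ± 0.29 (SE, 95% interval -1.08 to 0.15, edgeR adjusted p = 0.236). mir-215 averaged 46.9 ± 11.6 CPM and 54.5 ± 24.7 CPM, a log2 difference of 0.07 ± 0.36 (SE, 95% interval -0.70 to 0.85, edgeR adjusted p = 0.901). The genotypes overlapped for each row. The same fit called 25.9% of 536 rows, 18.8% higher and 7.09% lower, and the genotypes did not overlap in 28.7% of rows. With spike-in scaling the median row moved from -0.03 to 0.42, 134 rows were higher and 0 lower in place of 101 and 38. The log2 difference was then -0.070 for mir-192 (edgeR adjusted p = 0.957), 0.080 for mir-194 and 0.61 for mir-215. With total miRNA scaling it was -0.28 for mir-192, -0.070 for mir-194 and 0.52 for mir-215. The size of the differences of mir-192, mir-194 and mir-215 thus depended on the scaling, and for mir-194 the direction did too.

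The spread among deletion clones came mainly from 1 clone. Clone 30 had the highest level of all 8 control sums for mir-192 and mir-194, and the other 3 deletion clones, at 1512 to 1749.9 CPM for mir-192, lay under every wild-type clone. Without clone 30, with TMM scaling, the log2 difference was -1.14 ± 0.22 (SE) for mir-192 (edgeR adjusted p = 0.00947) and -0.78 ± 0.22 (SE) for mir-194 (edgeR adjusted p = 0.0275). Both then passed the test, whereas mir-215 was at -0.02 (adjusted p = 0.981). That fit called 129 of 562 rows, 99 higher and 30 lower, and was not run with spike-in scaling. Clone 30 is singled out here by its levels of the same rows. With each other clone left out in turn, neither row passed. Clone 30 with control shRNAs also had a summed level of 5 blood-cell markers of 2439.9 CPM, against 179.7 to 876 CPM in the other 7 control sums, with 2 of the 5 markers at a mean of at least 10 CPM. Its miRNA counts were 209 per spike-in count, against 86.0 to 173 in the other 7. It was the highest of the 8 clones in 13.1% of 536 rows, within the 9.33% to 18.5% of the other clones. The part of these values in the levels of mir-192 and mir-194 was not tested.

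Among ERH-shRNA sums, the log2 difference between deletion and wild-type clones was -0.45 ± 0.33 (SE, 95% interval -1.17 to 0.26, edgeR adjusted p = 0.516) for mir-192. It was -0.29 ± 0.26 (SE, edgeR adjusted p = 0.582) for mir-194 and 0.50 ± 0.30 (SE, edgeR adjusted p = 0.463) for mir-215. These values moved with single clones. Without clone 30 they were -0.91 for mir-192 and -0.66 for mir-194 (edgeR adjusted p = 0.263 for both), and -0.25 for mir-192 without clone 67. Without clone 57 mir-194 was at -0.19, and without clone 34 mir-215 was at 0.20. With each clone left out in turn, none of the 3 rows passed. Wild-type clones averaged 33.9 ± 6.43 CPM of mir-215 and deletion clones 48.5 ± 18.4 CPM (SD, n = 4). The genotypes overlapped for all 3 rows, against 10.2% of 569 rows without overlap. The interaction asks whether the knockdown change differed between genotypes. It was 0.33 ± 0.19 (SE, 95% interval -0.07 to 0.74, edgeR adjusted p = 0.350) for mir-192, so that the fall was not shown to differ between the genotypes. For mir-194 it was 0.22 ± 0.19 (SE, edgeR adjusted p = 0.581) and for mir-215 0.48 ± 0.26 (SE, 95% interval -0.09 to 1.04, edgeR adjusted p = 0.342). The background was 0.0% in both fits. edgeR called 0 of 569 rows for the deletion under ERH shRNAs (87 at an unadjusted p under 0.05, and 11 called by DESeq2) and 0 of 667 for the interaction (127 unadjusted, and 19 by DESeq2). The interaction and both genotype comparisons share sums with the knockdown contrast.

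**Figure D3:**
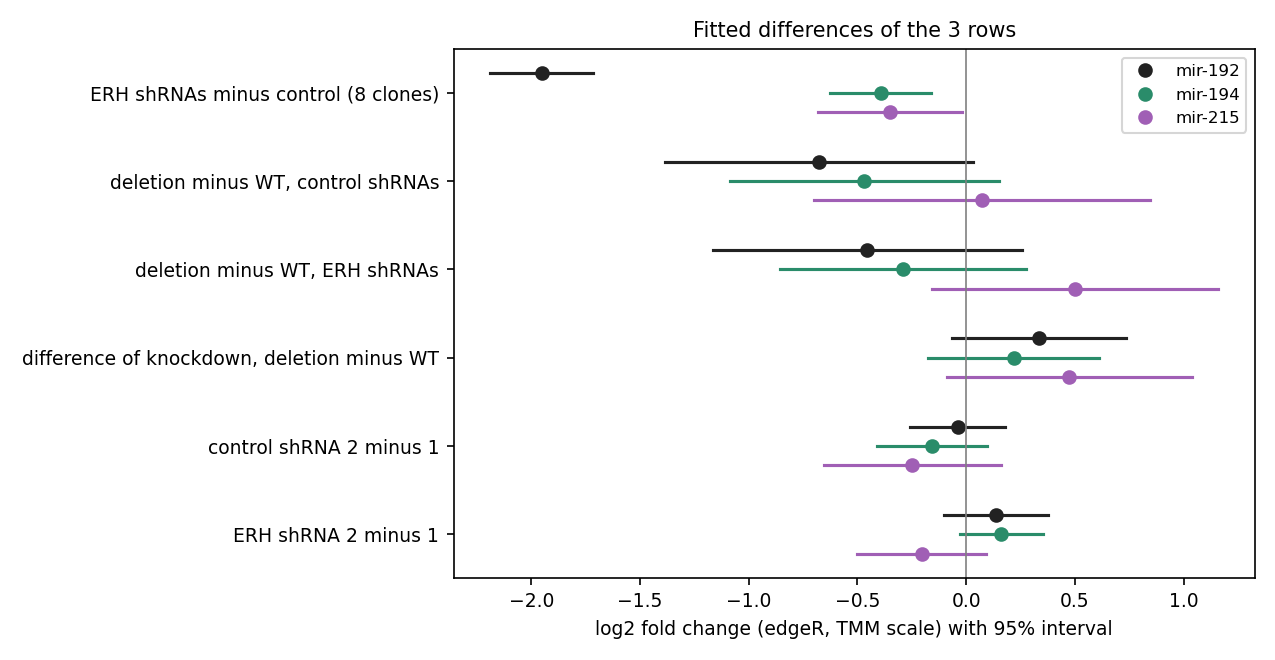
Log2 fold change of the 3 rows in each comparison, with 95% intervals from the edgeR fit; points are estimates, colours are rows and the grey line is no difference. The interval of mir-192 under the knockdown, a description, runs from -2.19 to -1.72, and all intervals of the tested comparisons include 0.

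The partner ratios were tested between genotypes by exact permutation of the 8 clones, two-sided, with p-values adjusted over 9 tests. With control shRNAs, wild-type clones averaged a log2 ratio of mir-192 to mir-194 of 2.26 ± 0.22 and deletion clones 2.0 ± 0.20 (SD, n = 4), a difference of -0.27 (exact p = 0.143, adjusted 0.321). With ERH shRNAs it was 0.64 ± 0.45 and 0.50 ± 0.23, a difference of -0.15 (exact permutation p = 0.686). The knockdown change of this ratio differed between genotypes by 0.12 (exact permutation p = 0.714). None of the 3 differences in this ratio passed the test. A single one of the 9 tests cannot pass after adjustment even at the smallest possible p, 0.0286. The adjusted threshold therefore decides nothing about a single difference. As a description, the difference of -0.27 with control shRNAs was larger than the SD of either genotype.

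For mir-215 to mir-194 the log2 ratios with control shRNAs averaged -3.95 ± 0.31 in wild-type clones and -3.41 ± 0.74 in deletion clones (SD, n = 4), a difference of 0.54 (exact permutation p = 0.229). With ERH shRNAs it was -4.04 ± 0.14 and -3.24 ± 0.76. That difference of 0.80 had the lowest p of the 9 (exact permutation p = 0.0857, adjusted 0.321). The knockdown change differed by 0.26 (exact permutation p = 0.314). The log2 ratio of mir-192 to mir-215 was 6.21 ± 0.36 and 5.41 ± 0.77 with control shRNAs (difference -0.80, exact permutation p = 0.114). It was 4.68 ± 0.35 and 3.73 ± 0.86 with ERH shRNAs (difference -0.95, exact permutation p = 0.143). Its knockdown change differed by -0.14 (exact permutation p = 0.457). Within each arm, deletion clones had the larger SD in the ratios with mir-215. For the knockdown change of mir-215 to mir-194, wild-type clones had the larger SD, 0.40 against 0.30. Clone 34, with the most mir-215, had the lowest ratio of mir-192 to mir-215 in each arm. Without clone 34, the difference in mir-215 to mir-194 was 0.18 with control shRNAs and 0.47 with ERH shRNAs, and that in mir-192 to mir-215 was -0.46 with control shRNAs. Without clone 30, the difference in mir-215 to mir-194 with ERH shRNAs was 1.05 (exact permutation p = 0.0286, adjusted 0.129). That in mir-192 to mir-215 with ERH shRNAs was then -1.25, with no overlap between the genotypes. It ran from -1.25 to -0.64 over the clones left out. The smallest p that 4 against 4 clones can give is 0.0286.

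The levels of the 3 rows were then compared between clones. With control shRNAs the clones fell into 2 sets for mir-192 and mir-194. Deletion clones 34, 42 and 43 had 1512 to 1749.9 CPM of mir-192 and 409 to 453 CPM of mir-194, and the other 5 clones had 2567 to 4597 CPM and 617 to 971 CPM. Neither set holds 6 clones, so that a relation within a set cannot be tested, and no correlation over both sets is given for this arm. mir-215 did not follow that division, with its highest and its lowest control sum, 80.0 and 27.7 CPM, both in the set of 3. With ERH shRNAs, mir-192 and mir-194 had Pearson's r of 0.79 over the 8 clones (exact permutation p = 0.0316, adjusted 0.0949 over 6 relations computed, 3 in each arm) and Spearman's rho of 0.76 (exact permutation p = 0.0368, adjusted 0.110). Without clones 30 and 67, which lay farthest from the median of mir-192, r was 0.85. The relation did not pass the adjusted threshold. In this arm mir-215 had r of -0.19 to mir-192 (exact permutation p = 0.670, rho -0.31) and -0.19 to mir-194 (exact permutation p = 0.674, rho -0.10). Without the 2 farthest clones these r were -0.19 and 0.17. A genotype has 4 clones, too few for a value within it.

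**Figure D4:**
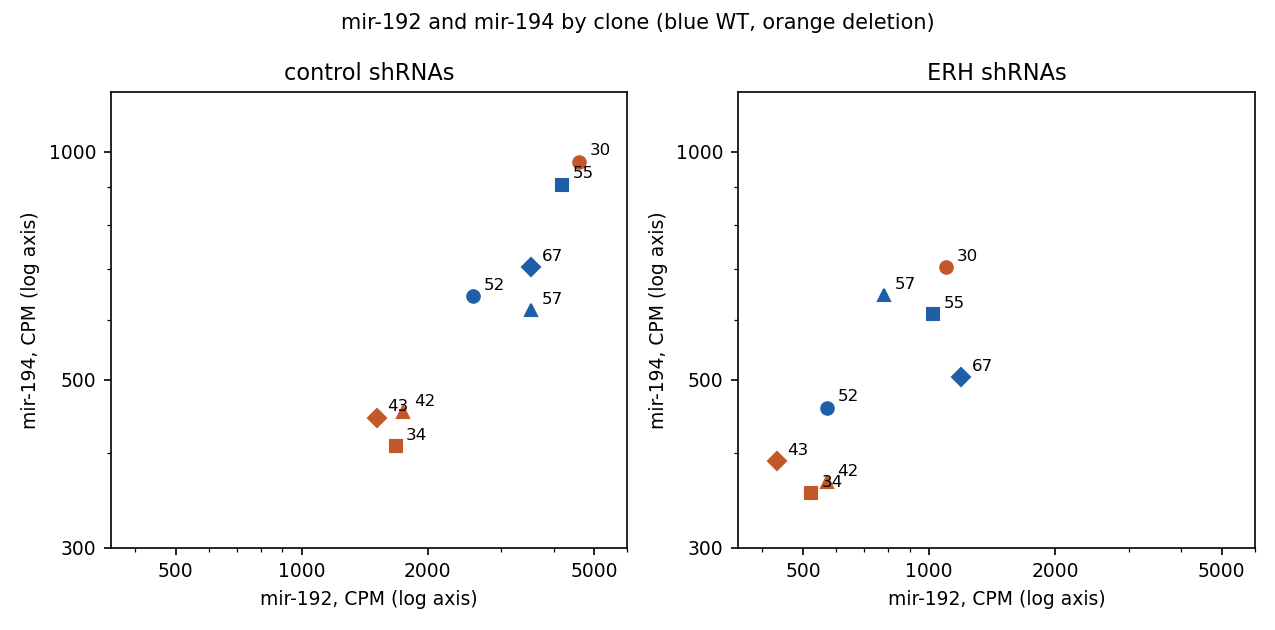
Level of mir-192 against mir-194 in the 8 clones, as TMM-scaled CPM on log axes, with control shRNAs on the left and ERH shRNAs on the right; points are clones, labelled by number, blue for wild type and orange for the deletion. Clones 34, 42 and 43 lie apart at the low end with control shRNAs, and clone 30 has the highest mir-194 in both arms.

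The ratio was set beside those of other hairpin families in which one row stands for a partner. mir-15a and mir-15b each pair with mir-16, and the cluster of mir-15a has been studied as a case of assisted cutting. mir-29a and mir-29c each pair with mir-29b, and mir-23a and mir-23b each lie with mir-24. With the knockdown, mir-15a to mir-16 changed by -1.49 ± 0.47 on the log2 scale (SD, n = 8 clones) and mir-29c to mir-29b by -1.24 ± 0.33, each lower in 8 of 8 clones. The change for mir-192 to mir-194, -1.56 ± 0.34, was of that size. mir-15b to mir-16 changed by -0.78 ± 0.34 (lower in 8 clones) and mir-29a to mir-29b by -0.45 ± 0.36 (lower in 7). mir-23a to mir-24 changed by 0.04 ± 0.16 (lower in 3) and mir-23b to mir-24 by -0.20 ± 0.19 (lower in 7).

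Between genotypes with control shRNAs, the ratio of mir-192 to mir-194 was set against 3 of these ratios by the difference of the log2 ratios per clone. Deletion minus wild type was -0.61 against mir-15a to mir-16 (exact permutation p = 0.229, adjusted 0.343) and -0.06 against mir-29c to mir-29b (exact permutation p = 0.83). Against mir-23a to mir-24 it was -0.41, with no overlap between the 4 and 4 clones (exact permutation p = 0.0286, the smallest possible, adjusted 0.0857). A single one of 3 tests with 4 against 4 clones cannot go below an adjusted p of 0.0857, so the adjusted threshold decides nothing for mir-23a to mir-24.

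**Figure D5:**
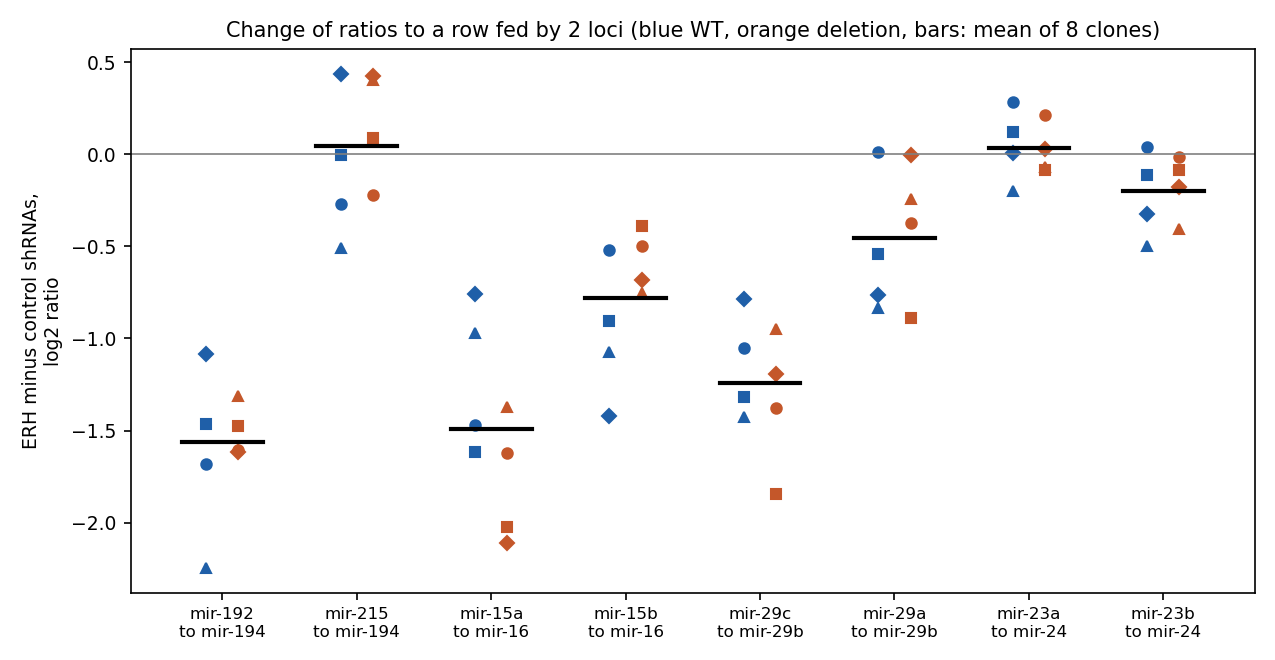
Change of the log2 partner ratio with ERH shRNAs in each clone, for the ratios of mir-192 and mir-215 to mir-194 and 6 ratios of other families; points are clones (blue wild type, orange deletion) and black bars are means (n = 8). mir-192 to mir-194, mir-15a to mir-16 and mir-29c to mir-29b lie lowest, at -1.56, -1.49 and -1.24, and mir-215 to mir-194 and mir-23a to mir-24 lie at 0.04.

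The rows most like each member were taken over the 16 sums as Pearson's r of log2 CPM, among 368 rows with a mean of at least 10 CPM, as a description. The sums share clones and arms, so r here mixes the knockdown with differences between clones. For mir-192 they were mir-27b, mir-15a and mir-29c, each with r of 0.85, and mir-194 was at rank 15 with r of 0.74. For mir-194 they were mir-301a and mir-497 with r of 0.85 and mir-9 with 0.84, and mir-192 was at rank 14. For mir-215 they were mir-1 with r of 0.66 and mir-3065 and mir-124 with 0.64, while mir-192 stood at rank 51 with r of 0.29 and mir-194 at rank 94 with 0.19. For mir-194, which has a partner at each locus, mir-215 stood at rank 147 with r of 0.19. mir-192 and mir-194 were thus among the closest rows to each other. mir-215, the row with the fewest counts, was not close to either.

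The other reported p53 targets examined were mir-34a, mir-34b, mir-34c, mir-143, mir-145, mir-605 and mir-107. With the knockdown, 2 of 7 were lower and 0 higher, against 16.5% and 20.1% of all rows. These were mir-34a, with a log2 change of -0.55 (edgeR adjusted p = 0.00054), and mir-34c, with -0.53 (edgeR adjusted p = 0.0216). The list's median was -0.33, beside 0.06 over all rows. Between genotypes with control shRNAs, mir-605, at a mean of 6.84 CPM, was higher in deletion clones (log2 difference 1.99, edgeR adjusted p = 0.00922) and mir-107 lower (log2 difference -0.56, edgeR adjusted p = 0.0331), out of 6 tested, against 18.8% of all rows higher and 7.09% lower. mir-34a, at a mean of 3438 CPM the list's most abundant row, had -0.93 (adjusted p = 0.304) between the genotypes.

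Of 12 miRNAs known from renal and other epithelia, 9 were lower with the knockdown and 0 higher, against 16.5% and 20.1% of all rows, with a median of -0.43 beside 0.06 over all rows. The list holds the miR-200 family (mir-200a, mir-200b, mir-200c, mir-141 and mir-429), which keeps epithelial identity by targeting ZEB1 and ZEB2, as well as mir-204, 5 mir-30 rows and mir-203a. Among the 9 lower rows, mir-429 and mir-200a had few counts, at means of 0.80 and 4.32 CPM. mir-141 was lower (-0.41, edgeR adjusted p = 0.0428) and mir-200c was at 0.03 (adjusted p = 0.920), although these hairpins are neighbours. In the deletion under control shRNAs, 3 of 10 tested were lower, mir-204 (log2 difference -1.24), mir-30a (-0.61) and mir-30e (-0.63), against 7.09% of all rows lower and 18.8% higher. The median was -0.58 beside -0.03 over all rows. Of the 9 rows of the comparison families, 8 were lower with the knockdown, against 16.5% of all rows, and 4 with the deletion under control shRNAs, against 7.09%, and 0 were higher in either. With spike-in scaling, 0 of all 536 rows were lower in the deletion under control shRNAs, so the lower calls of these lists there did not hold under it. Under the knockdown, spike-in scaling called 22 of 667 rows lower and 233 higher, and the median row moved by 0.52. The knockdown calls of the 3 lists were not counted under that scaling. None of the 3 lists had a call in the other 4 comparisons, in which 0.0% of all rows were called. Blood-cell and epithelial marker sums were highest in clone 30 within the deletion controls, and their part in these counts was not tested.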

How the data were processed

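Small RNA was sequenced from 32 libraries of 8 clones. The deposited table gave whole-number read counts per miRNA precursor for 1513 rows and 4 spike-in RNAs, per the file headers. The spike-ins were added to 400 ng of total RNA, of which 100 ng went into a QIAseq library, per the labels' protocols. SAMtools is named in the submitters' processing notes. The aligner, build, annotation and any use of molecular identifiers are not given in the sources used here, so amplification copies may be among the counts. Both arms and all loci of a hairpin share a row. No column lacked a sample (0) and no row lacked a name (0).

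The members, lists and comparisons were chosen with earlier results of these data known. For each clone, counts were summed over the 2 libraries of an arm (16 sums). Differences were fitted across all rows with edgeR 4.0.16 (R 4.3.3), with filterByExpr, TMM scaling, the quasi-likelihood test and Benjamini-Hochberg adjustment, calling adjusted p under 0.05. Intervals (95%) came from the same fit. The clone was a block in the knockdown, interaction and vector comparisons, since each clone received all 4 vectors; deviations of a clone's 2 arms from their group means correlated with r of 0.44 to 0.85 over 369 rows. Where the clone was a block, the p-values of the fit measure the spread of within-clone differences. In the deletion comparisons they measure the spread of levels between clones. Log2 CPM used a prior count of 2 and ratios a pseudocount of 0.5. Ratios were tested by exact permutation over 70 arrangements, two-sided. The 48 pairs of libraries within groups differed by at least 75.4 chi-square per degree of freedom, so none was a copy.

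Named rows were the members, for each member the 3 most correlated rows of at least 10 CPM, same-strand neighbours within 10 kb, 9 rows of 3 comparison families, and lists of 7 p53 targets and 12 epithelial miRNAs. Marker rows were those of epithelium, hepatocytes, blood, muscle, neurons, endothelium, and fibroblasts and smooth muscle. Sequences came from RefSeq (GRCh38.p14), in which the 3 rows matched 4 hairpin genes, and hosts from GENCODE release 29. Neither is stated to be the annotation behind the counts. Hairpins were folded with RNAfold 2.7.2. Scripts were tested on simulated data. Alternatives were DESeq2 1.42.0, spike-in or total miRNA scaling, other filters, single shRNAs, single libraries, no replicate block, another pseudocount and leaving out each clone.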

Additional observations from a re-analysis of the deposited data

Results flagged for a closer look

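Within groups of 4 clones, the highest or lowest clone was called far from the others when its gap to the nearest clone exceeded Dixon's 95% critical share of the group's range on the log2 scale. Of 30 groups of levels and ratios tested, 4 held such a clone. Chance flags about 1 group in 20, and the groups share clones.

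Deletion clone 30 with control shRNAs had the highest mir-192, 4597 CPM against 1512 to 1749.9 CPM in the other 3 deletion clones, with a gap of 0.869 of the range. It also had the highest mir-194 with control shRNAs, 971 CPM against 409 to 453 CPM (gap 0.881), and with ERH shRNAs, 705 CPM against 355 to 391 CPM (gap 0.859). Deletion clone 43 had the lowest log2 ratio of mir-192 to mir-194 with ERH shRNAs, 0.15, with a gap of 0.841 of the range.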

How the results depend on the processing

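mir-192 under the knockdown ran from -2.01 to -1.49 over the alternatives. The count of rows called for the knockdown, 244, was 148 with a mean of at least 100 counts, 117 with shRNA 2 only and 37 with no replicate block, and 159 to 230 with a clone left out, the lowest without clone 55. With the deletion under control shRNAs, 139 became 76 with at least 100 counts, 35 with shRNA 2 only, and 83 to 129 with a clone left out, the lowest without clone 34. With ERH shRNAs the deletion called 0, but 11 with DESeq2 and 1 with no filter, and 0 to 1 with a clone left out (1 without clone 43). The interaction called 0, but 19 with DESeq2, 29 with total miRNA scaling, 19 with no filter, 29 with at least 100 counts, 52 with each library its own sample and 30 with shRNA 1 only. It called 0 to 35 with a clone left out, 35 without clone 52 and 3 without clone 67, and 0 with no replicate block. Control shRNA 2 against 1 called 1 with DESeq2 and 1 with at least 100 counts. ERH shRNA 2 against 1 called 1 with DESeq2, 1 with total miRNA scaling, 3 with no filter, and 0 to 1 with a clone left out (1 without clone 42).

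Spike-in scaling turned mir-194 (0.068) and mir-215 (0.11) under the knockdown, mir-194 in the deletion under control shRNAs (0.080), mir-192 (-0.059) and mir-194 (-0.18) in the interaction, and mir-192 between control shRNAs (0.094). Total miRNA scaling turned mir-194 in the interaction (-0.0100) and mir-192 between control shRNAs (0.0014). DESeq2 turned mir-215 in the deletion under control shRNAs (-0.0060), which ran from -0.17 to 0.28 with a clone left out, and was negative without clone 30, 34 or 52. mir-192 between control shRNAs ran from -0.11 to 0.0047 with a clone left out, positive without clone 43. The genotype difference of the log2 ratio of mir-192 to mir-194 ran from -0.27 to 0.051 with ERH shRNAs, turning without clone 67. That of its knockdown change ran from -0.093 to 0.29, turning without clone 57. With shRNA 2 only, the genotype difference of the knockdown change was -0.074 for mir-215 to mir-194 and 0.078 for mir-192 to mir-215. The ratio of mir-192 to mir-194 against mir-29c to mir-29b ran from -0.25 to 0.049, turning without clone 42, 43 or 57. With ERH shRNAs and spike-in scaling, r between mir-192 and mir-194 was 0.90 (exact permutation, adjusted p = 0.0268), and those of mir-215 were 0.34 to mir-192 and 0.37 to mir-194. The cause was not tested. Depth limited mir-215 most, with a median of 102 counts per library.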
